A study of Mus musculus with 12 samples.

Results

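Cell cycle genes, here 46 genes of DNA replication and mitosis, were followed in RNA from the mouse cerebral cortex of embryos with and without the epidermal growth factor receptor gene Egfr. The 46 were chosen by name and not by their values, though with earlier results of these data known. Each had a row of its own among the 55357 genes listed. The tissue was cortex and hippocampal formation of E17.5 embryos, freed from the ventral forebrain and cut into a rostral and a caudal piece. Knockout embryos had both Egfr alleles floxed and a Nestin-Cre transgene, whose promoter is active in neural progenitors, so that recombination is expected in these cells and their offspring and not in vessels, blood or microglia. Control embryos had 1 floxed and 1 intact Egfr allele. The titles name Cre in knockouts alone, and whether controls carried it is not given in the sources used here, so that a Cre effect and an Egfr effect cannot be told apart. The 12 libraries form 4 groups of 3 by their titles, knockout rostral and knockout caudal (embryos 5, 2 and 7), and control rostral and control caudal (embryos 1, 3 and 9).

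A cell enters division when cyclin D and cyclin E kinases inactivate the retinoblastoma protein and free E2F factors, which switch on the genes of DNA replication. Origins are then licensed by Cdc6, Cdt1 and the Mcm helicase, and genes of mitosis, which the DREAM and MuvB complexes hold silent in resting cells, are switched on later by B-Myb and Foxm1. In the late embryonic cortex the dividing neural cells are radial glia next to the ventricle, neuronal intermediate progenitors and the first glial progenitors. Neurons have left the cycle. The genes therefore serve as a readout of how many cells divide, and in bulk RNA fewer dividing cells and less of such RNA per dividing cell cannot be told apart.

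The libraries held between 25223733 and 30383672 counts. Egfr stood at 3.601 to 7.33 CPM (counts scaled to 1000000 per library) in the 6 knockout and at 19.2 to 41.6 CPM in the 6 control libraries, so the genotype labels held. The part and embryo labels held less well. Nr2f1, whose cortical level is known to fall from caudal to rostral, was at 97.1, 340.2 and 205 CPM in knockout libraries labelled rostral and at 248, 71.3 and 348 CPM in their caudal counterparts, and it was high in control rostral 3 and low in control caudal 3 as well. In 3 of the 6 titled embryos (knockout 5 and 2, control 9) Y-linked transcripts were found in one piece and Xist in the other, and control rostral 1 and 3 held both kinds. Every result below therefore concerns libraries as labelled, the n of 3 counts libraries or titled sums, and p-values cover no other spread, since these need not be separate embryos. Markers of cortical neurons (summed 1486 to 2464 CPM over 7 genes) and of radial glia (2155 to 2811 CPM over 12 genes) were present in every library. Those of choroid plexus ran from 0.332 to 54.0 CPM (summed over 5 genes, median 1.104 CPM), highest in control rostral 3 and followed by control caudal 1 (13.1 CPM), knockout caudal 5 (7.41 CPM) and control caudal 9 (5.56 CPM).

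The promoter sequences of 6 of the genes are shown because they hold short motifs found at different rates in replication and mitosis members. They are RefSeq promoters of mouse build GRCm38.p6, 250 bases before and 50 after the start of transcription, written 5′ to 3′ on the gene's strand, with capitals for a motif match. The E2F motif was searched as TTTCCCGC, TTTCGCGC, TTTGCCGC or TTTGGCGC, the cell cycle homology region (CHR) as TTTGAA or TTCGAA, and the CCAAT box as CCAAT, all on both strands and with overlapping matches counted. Positions are Cdc6 on chromosome 11 from 98907901 to 98908200 (plus strand), Mcm6 on chromosome 1 from 128359656 to 128359955 (minus strand), Cdk1 on chromosome 10 from 69352863 to 69353162 (minus strand), Ccnb2 on chromosome 9 from 70421505 to 70421804 (minus strand), Mki67 on chromosome 7 from 135716330 to 135716629 (minus strand) and Top2a on chromosome 11 from 99024140 to 99024439 (minus strand). Cdc6 and Mcm6 stand for the licensing genes, Cdk1 for a promoter with all 3 motifs, and the others for mitosis.
Cdc6: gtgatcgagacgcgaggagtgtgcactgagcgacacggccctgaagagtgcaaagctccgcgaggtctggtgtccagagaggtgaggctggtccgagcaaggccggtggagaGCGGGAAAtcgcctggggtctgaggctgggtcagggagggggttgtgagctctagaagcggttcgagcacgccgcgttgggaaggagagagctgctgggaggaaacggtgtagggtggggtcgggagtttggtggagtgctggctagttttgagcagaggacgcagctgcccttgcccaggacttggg
Mcm6: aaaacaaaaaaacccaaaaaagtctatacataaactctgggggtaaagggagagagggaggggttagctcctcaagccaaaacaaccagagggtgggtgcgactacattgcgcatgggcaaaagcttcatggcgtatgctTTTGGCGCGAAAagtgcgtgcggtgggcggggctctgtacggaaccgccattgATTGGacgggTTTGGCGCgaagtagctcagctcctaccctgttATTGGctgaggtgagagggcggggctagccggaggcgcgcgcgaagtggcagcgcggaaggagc
Cdk1: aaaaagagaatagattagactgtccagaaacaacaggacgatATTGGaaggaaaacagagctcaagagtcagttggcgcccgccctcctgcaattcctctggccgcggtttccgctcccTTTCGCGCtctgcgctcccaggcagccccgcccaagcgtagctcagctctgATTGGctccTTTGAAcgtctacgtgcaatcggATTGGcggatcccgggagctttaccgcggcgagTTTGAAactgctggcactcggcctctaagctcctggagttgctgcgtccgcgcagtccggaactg
Ccnb2: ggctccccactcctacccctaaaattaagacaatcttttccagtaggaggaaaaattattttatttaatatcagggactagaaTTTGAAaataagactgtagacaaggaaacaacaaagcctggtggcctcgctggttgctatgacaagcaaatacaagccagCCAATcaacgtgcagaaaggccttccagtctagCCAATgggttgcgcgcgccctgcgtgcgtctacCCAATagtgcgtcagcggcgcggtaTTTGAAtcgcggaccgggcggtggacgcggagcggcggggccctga
Mki67: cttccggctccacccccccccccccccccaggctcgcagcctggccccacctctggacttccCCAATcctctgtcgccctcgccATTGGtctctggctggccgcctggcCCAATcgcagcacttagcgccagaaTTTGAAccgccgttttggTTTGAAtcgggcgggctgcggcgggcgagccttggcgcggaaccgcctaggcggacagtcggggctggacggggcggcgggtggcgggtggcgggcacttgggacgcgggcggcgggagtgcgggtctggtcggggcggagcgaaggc
Top2a: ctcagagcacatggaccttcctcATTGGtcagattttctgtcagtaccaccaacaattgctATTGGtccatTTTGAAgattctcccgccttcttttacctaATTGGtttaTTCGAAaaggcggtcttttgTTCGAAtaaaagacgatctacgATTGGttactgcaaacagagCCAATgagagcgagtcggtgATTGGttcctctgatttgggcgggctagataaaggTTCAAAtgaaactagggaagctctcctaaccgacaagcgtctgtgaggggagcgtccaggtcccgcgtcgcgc

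Cdc6 held 1 E2F match and no CHR or CCAAT match. Mcm6 held 3 E2F matches, a pair of which share 4 bases in the run TTTGGCGCGAAA, and 2 CCAAT matches. Mki67 held 2 CHR matches and Top2a 4, beside 3 and 6 CCAAT matches, and neither held an E2F match. Of the 46 members 36 had an entry in the table, Mcm7 and Uhrf1 with 2 starts each, and 10 had none (Mcm4, Gins2, Ccnd1, Ccnd2, Ccne2, Ccna2, Aurkb, Kif20a, Tpx2 and Foxm1). An E2F match was found in 8 of the 13 replication members with an entry (61.5%) and in 1 of the 20 mitosis members (5%, Cdk1), against 2.6% of all 27025 genes in the table. A CHR match was found in 2 of 13 replication members (15.4%) and 15 of 20 mitosis members (75%), against 21.7% of all genes, and all 15 had a CCAAT match too, a pairing held by 8.61% of all genes. A match describes the letters of this window and is no proof of a bound site.

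All 46 genes had counts in all 12 libraries, from 140 counts for the cyclin gene Ccne1 in its lowest library to 34848 for Ccnd2 in its highest. Per kilobase of exon, Ccnd2, the D cyclin of cortical progenitors, had the highest level, a mean of 86.7 CPM per kb over the libraries. Next came the polymerase clamp Pcna at 63.2, the ribonucleotide reductase subunit Rrm2 at 37.05, the helicase subunit Mcm7 at 35.9 and the topoisomerase Top2a at 30.4 CPM per kb. The lowest were the licensing factor Cdc6 at 2.09, the helicase cofactor Gins2 at 2.27 and Ccne1 at 2.503 CPM per kb. The genes Cdk2, Foxm1, Mcm2, Mcm7, Rrm1, Ccnb2 and Top2a had a count that was not whole in 5 to 7 libraries, the mark of reads shared with another gene or place, which makes their levels less certain.

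The genes varied widely between libraries of 1 group, and they did so together. The summed level of all 46 was 3336, 2083 and 3980.0 CPM in knockout rostral libraries 5, 2 and 7 and 3379.7, 2690.0 and 4983 CPM in control rostral libraries 1, 3 and 9. In caudal libraries it was 3559, 5342 and 3043 CPM in knockouts and 3419, 4369 and 3134 CPM in controls. The genotypes overlapped in both parts, and the extremes, 2.56-fold apart, both carry the title of knockout embryo 2. Knockout rostral 2 was the lowest library for 45 of the 46 genes, where it was the lowest for 13.1% of the 17734 genes tested over all libraries. The exception was Mcm6, lowest in control rostral 3. Knockout caudal 2 was the highest for 28 of the 46 (11.6% of all genes), control rostral 9 for 12, knockout rostral 7 for 4, and knockout caudal 5 and control rostral 1 for 1 each. With TMM scaling the counts for knockout rostral 2 and knockout caudal 2 were 43 and 32.

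**Figure D1:**
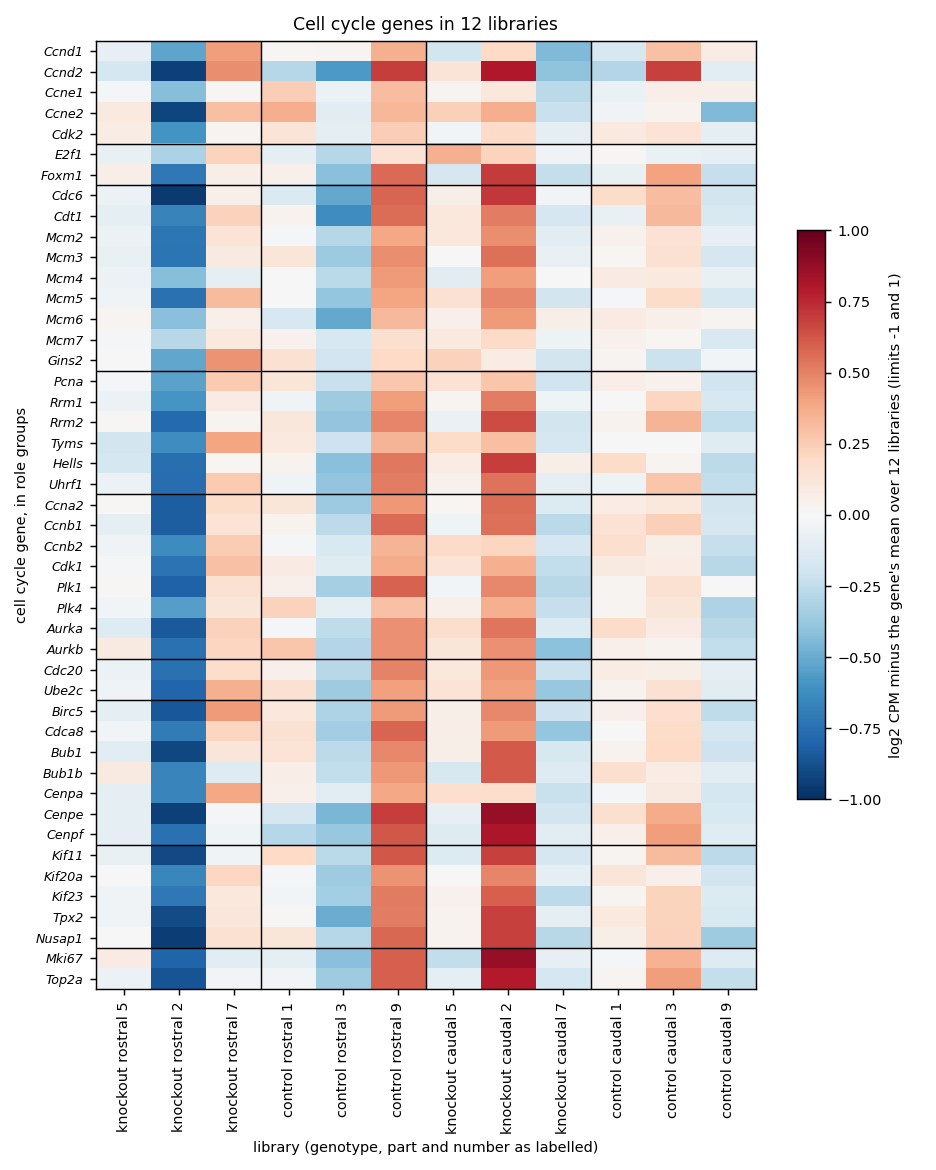
Level of each of the 46 genes (rows, in role groups parted by lines) in the 12 libraries (columns), as log2 CPM minus the gene's mean over the libraries, in colour from -1 (blue) to 1 (red). The column of knockout rostral 2 is blue throughout, and those of control rostral 9 and knockout caudal 2 are mostly red.

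The highest library exceeded the lowest by a median of 2.43-fold over the 46 genes, from 1.38-fold for Mcm7 to 3.49-fold for the kinetochore motor Cenpe. Over the 11616 genes with a mean of at least 5 CPM the median was 1.45-fold and the 90th percentile 2.34-fold. Mitosis members spread more than replication members, with medians of 2.55-fold over 24 genes and 2.28-fold over 15. Their summed levels ran from 830.2 to 2306 CPM for mitosis (2.78-fold) and from 758 to 1519 CPM for replication (2.004-fold). Their ratio ran from 1.095 in knockout rostral 2 to 1.52 in knockout caudal 2. So the library with the least cell cycle RNA also had the smallest share of mitosis in it, and the library with the most had the largest. These are descriptions of 12 libraries and carry no test.

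**Figure D2:**
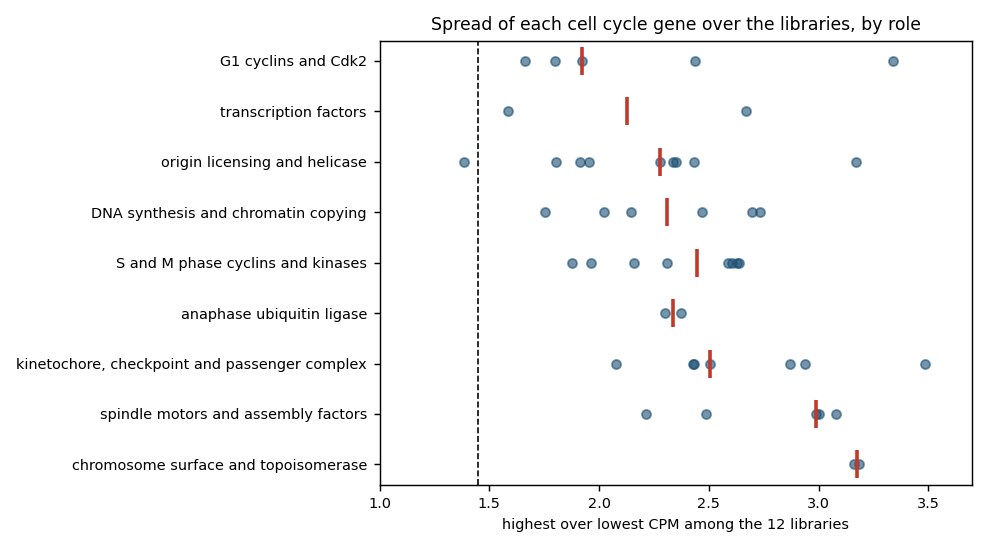
Highest over lowest CPM among the 12 libraries for each gene (points) by role, with the median of each role (red bar) and the median of 11616 genes with a mean of at least 5 CPM (dashed line, 1.45-fold). All genes but Mcm7 lie to the right of the dashed line.

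The G1 cyclins and Cdk2, which start the cycle, spread between 1.66-fold (Ccne1) and 3.34-fold (Ccnd2) over the libraries. Ccnd2 (GRCm39 chromosome 6, 127102125 to 127129156) stood at 674, 398 and 1055 CPM in knockout rostral libraries 5, 2 and 7 and at 625, 512 and 1234 CPM in control rostral libraries 1, 3 and 9. In the caudal libraries, in the same order of embryos, it stood at 835, 1330.4 and 576 CPM in knockouts and 621, 1226 and 709 CPM in controls. It was at 1055 CPM or more in knockout rostral 7, control rostral 9, knockout caudal 2 and control caudal 3, which are 1 library of each group, and at 835 CPM or less in the other 8. Ccnd1, the D cyclin that growth factor signalling is known to induce, stood at 40.1, 29.4 and 56.5 CPM (knockout rostral), 43.1, 43.3 and 54.1 CPM (control rostral), 37.4, 48.7 and 31.2 CPM (knockout caudal) and 37.95, 51.9 and 44.6 CPM (control caudal). It was highest in knockout rostral 7, and in the caudal part knockouts 5 and 7 were the lowest of the 6 and knockout 2 lay among the controls. The E cyclins, which drive entry into DNA synthesis, were low. Ccne1 ran from 4.93 to 8.198 CPM, with 6.52, 4.93 and 6.68 CPM in knockout rostral, 7.82, 6.34 and 8.198 in control rostral, 6.75, 7.101 and 5.47 in knockout caudal and 6.33, 6.93 and 6.88 in control caudal libraries. Ccne2 was at 11.6, 5.699 and 13.3 CPM in knockout rostral, 13.9, 9.95 and 13.6 CPM in control rostral, 12.7, 13.9 and 9.26 CPM in knockout caudal and 10.5, 11.03 and 7.96 CPM in control caudal libraries. In both genes the genotypes overlapped within each part. Cdk2, their kinase, ran from 13.6 to 24.4 CPM.

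Of the transcription factors, E2f1, which activates replication genes, was the steadier, with a 1.59-fold spread against 2.67-fold for Foxm1, which activates mitosis genes. E2f1 (GRCm39 chromosome 2, 154401327 to 154411812) stood at 19.6, 16.6 and 24.1 CPM in knockout rostral, 19.3, 17.01 and 22.8 CPM in control rostral, 26.4, 24.2 and 20.2 CPM in knockout caudal and 20.9, 19.8 and 19.6 CPM in control caudal libraries. Knockout caudal 5 and 2 exceeded all controls of their part, and knockout caudal 7 lay among them. Foxm1 stood at 45.1, 26.2 and 44.98 CPM in knockout rostral, 44.5, 32.1 and 63.8 CPM in control rostral, 38.2, 69.9 and 36.4 CPM in knockout caudal and 40.8, 56.7 and 36.6 CPM in control caudal libraries, highest in knockout caudal 2 and lowest in knockout rostral 2. The 2 genes were thus highest in different libraries.

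Among the genes of origin licensing and the helicase, which load and unwind DNA at origins, the ring subunits Mcm2 and Mcm6 are given in full. Mcm2 stood at 72.4, 45.7 and 82.9 CPM in knockout rostral and 74.9, 62.1 and 98.6 CPM in control rostral libraries, and at 81.4, 104 and 69.7 CPM in knockout caudal and 77.7, 83.3 and 71.4 CPM in control caudal ones. Mcm6 (GRCm39 chromosome 1, 128259327 to 128287401) stood at 107, 78.8 and 109 CPM in knockout rostral, 94.5, 73.9 and 132 CPM in control rostral, 109, 141 and 109.7 CPM in knockout caudal and 111, 109 and 107 CPM in control caudal libraries. Its 3 control caudal libraries lay close together, while its control rostral ones ran from the lowest of all 12 to the second highest. Mcm4, another ring subunit, stood at 64.9, 50.4 and 63.1 CPM in knockout rostral, 67.6, 56.2 and 90.99 CPM in control rostral, 62.4, 90.2 and 67.96 CPM in knockout caudal and 71.7, 72.3 and 64.3 CPM in control caudal libraries, and the genotypes overlapped within each part. Gins2, of the GINS helicase cofactor, stood at 9.19, 6.398 and 12.5 CPM in knockout rostral, 10.2, 8.02 and 10.5 CPM in control rostral, 10.7, 9.66 and 8.08 CPM in knockout caudal and 9.33, 7.89 and 8.996 CPM in control caudal libraries, highest in knockout rostral 7. The licensing factors Cdc6 and Cdt1 spread 3.17-fold and 2.35-fold, and the subunits Mcm3 and Mcm5 2.43-fold and 2.34-fold.

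DNA synthesis and chromatin copying rest on Pcna, on enzymes that make nucleotides (Rrm1, Rrm2 and Tyms) and on Uhrf1 and Hells, which carry DNA methylation to the new strand. Pcna stood at 147, 103 and 179 CPM in knockout rostral, 163, 129 and 181 CPM in control rostral, 165, 182 and 131 CPM in knockout caudal and 157, 154 and 130.4 CPM in control caudal libraries. Its 1.76-fold spread was the smallest of these 6 genes. Hells, a chromatin remodeller (GRCm39 chromosome 19, 38919359 to 38959495), stood at 32.3, 21.6 and 36.99 CPM in knockout rostral, 37.5, 27.4 and 52.8 CPM in control rostral, 38.5, 59.1 and 38.1 CPM in knockout caudal and 41.4, 37.2 and 30.6 CPM in control caudal libraries. All 3 knockout caudal libraries lay above all 3 knockout rostral ones, while controls of the 2 parts overlapped. Rrm2, Uhrf1, Rrm1 and Tyms spread 2.696-fold, 2.47-fold, 2.15-fold and 2.02-fold.

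The cyclins and kinases of S and M phase drive cells through replication and into division. Cdk1, the kinase that drives mitosis, stood at 43.1, 26.3 and 53.6 CPM in knockout rostral, 46.4, 40.2 and 56.7 CPM in control rostral, 48.2, 55.9 and 36.9 CPM in knockout caudal and 46.6, 46.2 and 36.2 CPM in control caudal libraries. Its partner cyclin B1, Ccnb1, stood at 48.7, 29.5 and 57.4 CPM in knockout rostral, 53.5, 43.5 and 77.5 CPM in control rostral, 50.6, 76.3 and 43.3 CPM in knockout caudal and 57.7, 61.7 and 46.4 CPM in control caudal libraries. Both were highest in control rostral 9 and lowest in knockout rostral 2. Plk4, the kinase of centriole copying, was at 20.7, 14.4 and 22.9 CPM in knockout rostral, 24.8, 19.8 and 25.8 CPM in control rostral, 21.8, 26.95 and 18.004 CPM in knockout caudal and 21.5, 22.9 and 17.03 CPM in control caudal libraries. The cyclins Ccna2 and Ccnb2 and the mitotic kinases Plk1, Aurka and Aurkb spread between 1.96-fold (Ccnb2) and 2.64-fold (Plk1). Cdc20 and Ube2c, which turn the anaphase ubiquitin ligase on its targets, spread 2.37-fold and 2.2998-fold, and both were highest in control rostral 9.

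The kinetochore, checkpoint and passenger genes, which attach chromosomes to the spindle and delay anaphase until all are attached, spread from 2.08-fold for the centromere histone Cenpa to 3.49-fold for Cenpe. Between them lay Bub1 at 2.87-fold, Bub1b at 2.43-fold, Cenpf at 2.94-fold, Birc5 at 2.51-fold and Cdca8 at 2.43-fold. Of the spindle motors and assembly factors, Kif11, the motor that pushes the spindle poles apart, is given in full. It (GRCm39 chromosome 19, 37364851 to 37410307) stood at 73.1, 40.98 and 75.1 CPM in knockout rostral and 87.98, 63.7 and 118 CPM in control rostral libraries. In the caudal part it stood at 69.9, 123 and 68.4 CPM in knockout and 78.1, 95.4 and 64.1 CPM in control libraries. Knockout rostral 2 was the lowest and knockout caudal 2 the highest, while knockout libraries 5 and 7 differed little between the parts. All 5 genes of this role (Kif11, Kif20a, Kif23, Tpx2 and Nusap1) had those same 2 extremes.

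Mki67, the standard marker of cycling cells, coats mitotic chromosomes, and Top2a untangles them. Mki67 (GRCm39 chromosome 7, 135291513 to 135318090) stood at 217, 118 and 189 CPM in knockout rostral and 192, 153 and 309.8 CPM in control rostral libraries. In caudal libraries it stood at 172, 374 and 193 CPM in knockouts and 203, 259.9 and 187 CPM in controls. Top2a (GRCm39 chromosome 11, 98883769 to 98915015) stood at 252, 144 and 258 CPM in knockout rostral, 258, 205 and 397 CPM in control rostral, 246, 456 and 233 CPM in knockout caudal and 268, 351 and 222 CPM in control caudal libraries. In both genes knockout caudal 2 was the highest of the 12, followed by control rostral 9 and control caudal 3, and knockout rostral 2 was the lowest. The group means of Mki67 were 175 ± 51.2 against 218 ± 81.6 CPM in rostral and 246 ± 111 against 217 ± 38.2 CPM in caudal libraries (knockout against control, SD, n = 3 each). In each part the difference of the means was smaller than the larger of the 2 SDs.

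**Figure D3:**
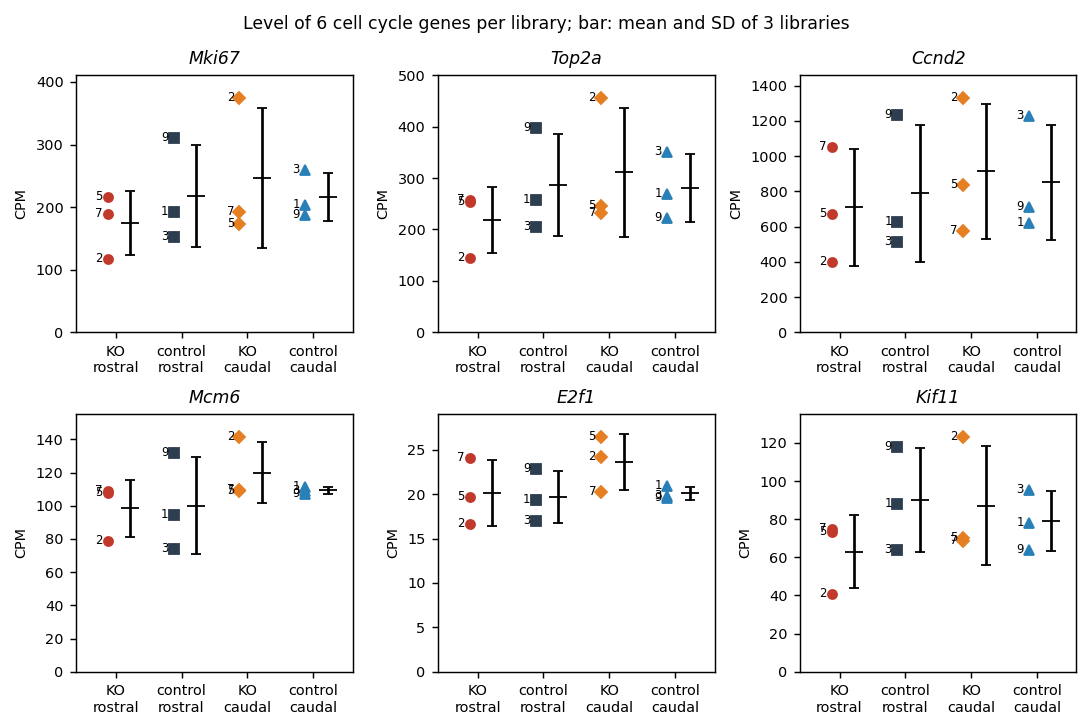
CPM of 6 cell cycle genes in each library (points, with the embryo number of the title) by group, with the mean and SD of the 3 libraries beside them. In each panel knockout and control libraries of a part overlap, and the point of knockout rostral 2 is the lowest of its group.

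To ask whether cell cycle genes differ with genotype in the rostral cortex, the 3 knockout rostral libraries were compared with the 3 control rostral ones. None of the 46 genes was called by edgeR's quasi-likelihood test at a Benjamini-Hochberg adjusted p under 0.05, none had an unadjusted p under 0.05, and DESeq2 called none. In this comparison 0% of the 17131 genes tested were called (4 by DESeq2), and 180 had an unadjusted p under 0.05 (1.05%). Egfr itself was not called by edgeR here, at a log2 fold change of -2.27 (SE 0.30, unadjusted p = 0.000146 by edgeR). It was called in the caudal libraries (adjusted p = 0.0025 by edgeR) and in the sums per titled embryo (adjusted p = 0.00556 by edgeR), both compared below. A missing call in the rostral libraries thus does not show that a gene was unchanged. All 46 passed the filter on low counts. Their median log2 fold change, knockout over control, was -0.23, with 43 negative and 3 positive, against a median near 0 over all genes tested. The most negative was Kif11 at -0.48 (SE 0.31, 95% interval -1.21 to 0.26) and the most positive E2f1 at 0.07 (SE 0.19, 95% interval -0.38 to 0.52). Ccne1 was at -0.27 (SE 0.20), Gins2 at 0.01 (SE 0.27), Mki67 at -0.29 (SE 0.33), Top2a at -0.36 (SE 0.32) and Ccnd2 at -0.12 (SE 0.46). No gene of the 46 had groups that did not overlap, where 1.45% of all genes lay wholly higher and 4.75% wholly lower in knockouts. The median rested on single libraries: it was 0.01 with 24 genes positive without knockout rostral 2, and 0.03 with 31 positive without control rostral 9.

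The same question in the caudal cortex gave the opposite sign and again no call. None of the 46 genes was called by edgeR's quasi-likelihood test, none had an unadjusted p under 0.05, and DESeq2 called none, in a comparison where 0.0472% of 16964 genes were called (77 genes by DESeq2) and 5.13% had an unadjusted p under 0.05. The median log2 fold change was 0.14, with 43 genes positive and 3 negative (Ccnd1, Ccne1 and Cdk2). E2f1 had the smallest p at a log2 fold change of 0.24 (SE 0.11, 95% interval -0.01 to 0.50), with adjusted p = 0.998 by edgeR. Hells followed among the positive ones at 0.33 (SE 0.19), and Ccnd1 was at -0.19 (SE 0.18) and Ccne1 at -0.05 (SE 0.15). Mki67 was at 0.20 (SE 0.31), Top2a at 0.16 (SE 0.29) and Ccnd2 at 0.11 (SE 0.37). No gene of the 46 had groups that did not overlap, against 4.0% wholly higher and 6.14% wholly lower of all genes. Without knockout caudal 2 the median was -0.05 and 13 genes were positive.

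The libraries that carry the same embryo number were then summed, and the spread between samples became smaller. The titled pairs joined low libraries to high ones, such as the 2 of knockout 2, the lowest and the highest of all. The summed-library level of Mki67 was 193, 240.3 and 191 CPM in knockouts 5, 2 and 7 and 197, 208 and 249 CPM in controls 1, 3 and 9. That of Top2a was 249, 293 and 246 CPM in knockouts and 263, 281 and 311 CPM in controls, and that of Ccnd2 759, 844 and 826 CPM and 623, 882 and 976 CPM. The genotypes overlapped in all 3 genes. The pooled SD of a sample's median member level was 0.37 on the log2 scale among single libraries and 0.08 among sums. Since the transcripts above went against the titled pairs, the sums may join different embryos, and their intervals rest on the titles.

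None of the 46 genes was called between the knockout and control sums by edgeR's quasi-likelihood test, and none by DESeq2, in a comparison where 0.0317% of 18937 genes were called (32 genes by DESeq2). Their median log2 fold change was -0.04, with 13 positive and 33 negative. Kif11 was the 1 gene with an unadjusted p under 0.05 (3.4% of all genes), at 74.5 ± 4.92 against 84.9 ± 5.89 CPM (SD, n = 3 each) and a log2 fold change of -0.16 (SE 0.07, 95% interval -0.32 to -0.0044), with adjusted p = 1 by edgeR. Ccnb1 was at -0.14 (SE 0.07, 95% interval -0.30 to 0.02) and Ccnd1 at -0.15 (SE 0.10, 95% interval -0.38 to 0.08). On the positive side E2f1 was at 0.16 (SE 0.09, 95% interval -0.03 to 0.36) and Mcm6 at 0.08 (SE 0.09, 95% interval -0.14 to 0.29). Mki67 was at -0.05 (SE 0.12, 95% interval -0.32 to 0.22), Top2a at -0.09 (SE 0.09, 95% interval -0.29 to 0.10) and Cdk1 at -0.02 (SE 0.07, 95% interval -0.18 to 0.14). Pcna was at 0.01 (SE 0.07), Mcm2 at -0.02 (SE 0.07), Foxm1 at -0.07 (SE 0.08) and Ccnd2 at -0.01 (SE 0.17, 95% interval -0.40 to 0.39). Over the 46 genes no 95% interval reached below -0.40 or above 0.39. Ccne1, Cdk2, Ccnb1 and Plk4 had all 3 knockout sums below all 3 control sums, which is 4 of 46 where 5.22% of all genes did so, and none had them all above (3.07% of all genes). Ccne1 was at 6.24 ± 0.356 against 7.09 ± 0.451 CPM (SD, n = 3 each). Without the sum of control 9 the median was 0.04 and 33 genes were positive.

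**Figure D4:**
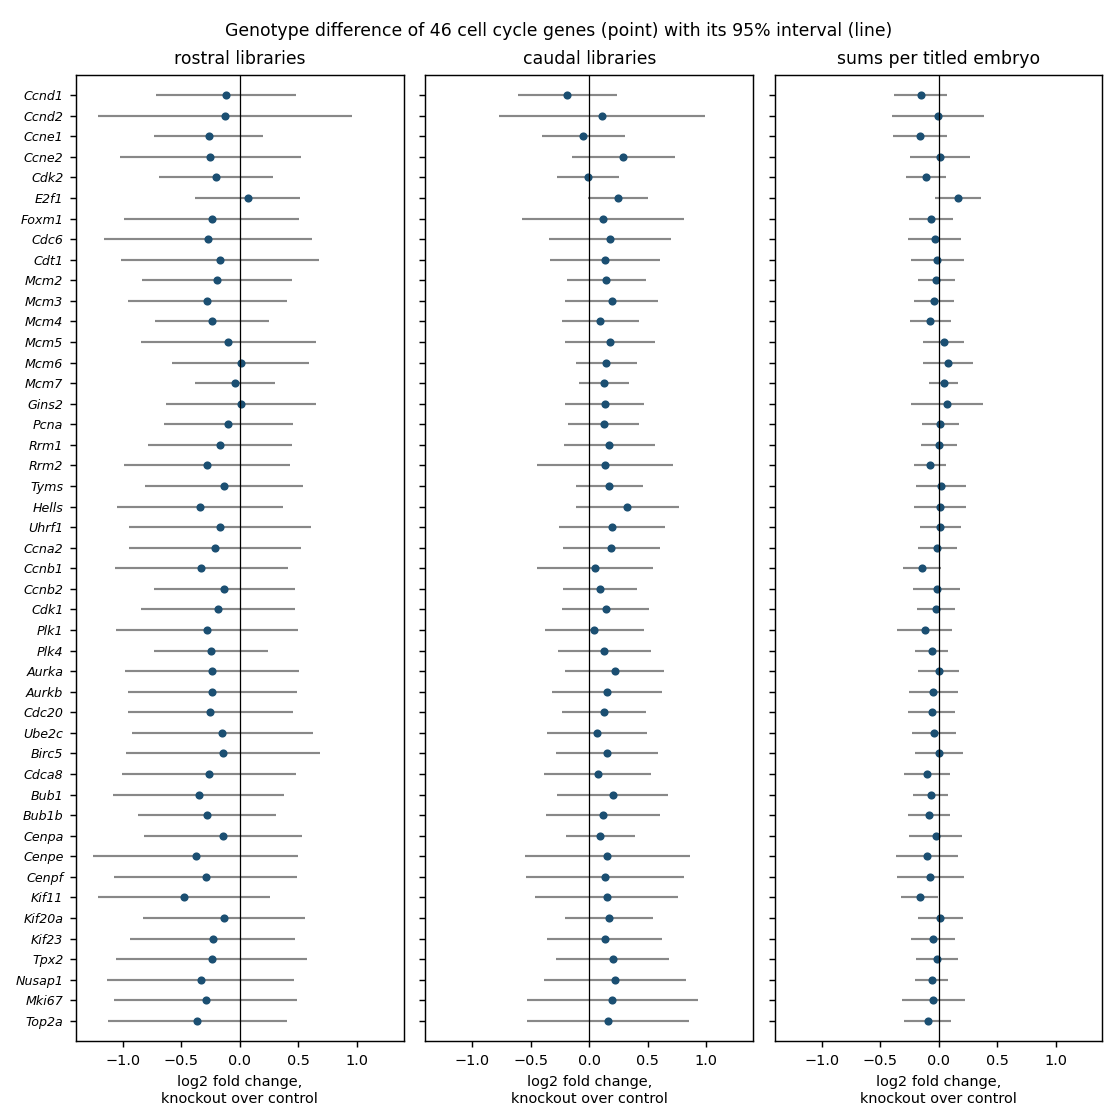
Log2 fold change of knockout over control (point) with its 95% interval from edgeR (line) for the 46 genes in rostral libraries, caudal libraries and sums per titled embryo. Rostral points lie mostly left of 0 and caudal ones mostly right, the sums lie near 0 with narrower intervals, and only that of Kif11 among the sums leaves out 0.

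Caudal was then compared with rostral within each genotype, in a fit of all 12 libraries. In controls none of the 46 genes was called by edgeR's quasi-likelihood test, none had an unadjusted p under 0.05 and DESeq2 called none, where 0% of 17734 genes were called (0 by DESeq2) and 2.99% had an unadjusted p under 0.05. The median log2 fold change, caudal over rostral, was -0.03, with 13 positive and 33 negative. Ccne2 was at -0.30 (SE 0.29, 95% interval -0.93 to 0.33), Plk4 at -0.16 (SE 0.20), Mcm6 at 0.16 (SE 0.21, 95% interval -0.29 to 0.61) and E2f1 at 0.06 (SE 0.16). No gene had groups that did not overlap (3.03% wholly higher and 5.61% wholly lower of all genes). The sign of this median turned as well, to 0.20 with 42 genes positive without control rostral 9 and to 0.04 with 31 positive without control caudal 9.

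In knockouts 45 of the 46 genes had a higher fitted level in caudal than in rostral libraries, with a median log2 fold change of 0.32, and again none was called by edgeR's quasi-likelihood test or by DESeq2. None had an unadjusted p under 0.05 by edgeR. In this comparison 0% of the 17734 genes were called by edgeR and 93 genes by DESeq2, and 9.9% had an unadjusted p under 0.05. Hells was at 0.59 (SE 0.28, 95% interval -0.02 to 1.205), with adjusted p = 0.518 by edgeR, and Mcm4 at 0.32 (SE 0.19). Cenpe had the most positive value, 0.60 (SE 0.37, 95% interval -0.22 to 1.42), and Ccnd1 the 1 negative one, -0.09 (SE 0.24, 95% interval -0.62 to 0.44). Mcm6 and Hells had all 3 caudal libraries above all 3 rostral ones, 2 of 46 where 6.33% of all genes did so, and for Mcm6 the nearest libraries of the parts were both at 109 CPM. None had them all below (6.67% of all genes). The 2 libraries of knockout embryo 2 carried the median: it was 0.10 without either one and -0.12, with 5 genes positive, without both. The difference between genotypes in the caudal to rostral fold had a median of 0.35 with 45 genes positive, and none was called by edgeR's quasi-likelihood test (none by DESeq2, none with an unadjusted p under 0.05; 0% of all genes called and 2.74% under 0.05 unadjusted). Hells was at 0.67 (SE 0.39, 95% interval -0.19 to 1.53), Kif11 at 0.63 (SE 0.45, 95% interval -0.35 to 1.62) and Ccnd1 at -0.07 (SE 0.34, 95% interval -0.82 to 0.68) in that test. Without both libraries of knockout 2 its median was -0.08.

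Of 121 other genes of the pathway, in 5 lists, 119 or 120 were tested per comparison, and none was called in any of the 6 by edgeR's quasi-likelihood test or by DESeq2. An unadjusted p under 0.05 was held by 0% of those tested in rostral libraries (1.05% of all genes), 5.04% in caudal libraries (5.13%) and 2.5% in sums (3.4%). For caudal against rostral it was 2.5% in controls (2.99% of all genes) and 7.5% in knockouts (9.9%), and for the interaction 0.833% (2.74%). The 41 other replication genes, such as polymerase and replication factor subunits, had a median log2 fold change between knockout and control of -0.13 in rostral libraries (2 positive), 0.13 in caudal ones (38 positive) and 0.02 in sums (22 positive). The 49 other mitosis genes, such as condensins and further kinesins, had medians of -0.24 (2 positive), 0.17 (47 positive) and -0.02 (16 positive). In sums the smallest p among replication genes belonged to Dbf4 at -0.11 (SE 0.06) and Cdc7 at -0.13 (SE 0.08), and among mitosis genes to Ncapd2 at 0.14 (SE 0.07) and Espl1 at -0.19 (SE 0.11). The 17 Rb, E2F and DREAM factors had a median of -0.02 in sums with 8 positive, and those with the smallest p were E2f3 at -0.15 (SE 0.06) and Lin52 at 0.17 (SE 0.08). Of 7 genes for inhibitors of cyclin kinases, 6 were tested in sums (5 in rostral and in caudal libraries), 3 positive and 3 negative with a median of 0.04 and a range of -0.21 to 0.43, with Cdkn1b at 0.12 (SE 0.06) and Cdkn2c at 0.23 (SE 0.13). Of the 7 other G1 genes, Myc, a growth factor response gene, was at -0.38 (SE 0.09, adjusted p = 0.992 by edgeR) and Cdk6 at 0.25 (SE 0.08).

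Summed levels of the inhibitor genes ran only from 343 to 429.9 CPM over the 12 libraries (1.25-fold), against 1.61-fold for the other replication genes and 1.97-fold for the other mitosis genes. Summed radial glia markers, of cells that include most progenitors, ran from 2155 CPM in knockout rostral 2 to 2811 CPM in knockout caudal 2. This 1.305-fold range had the same 2 extremes as the sum of the 46 genes. Among single markers Pax6 had them too, but Hes5 ran from 10.3 CPM in knockout rostral 5 to 49.9 CPM in control caudal 1. Hopx was higher in knockout rostral 2 (15.3 CPM) than in knockout caudal 2 (11.3 CPM). Markers of neuronal intermediate progenitors (8 genes) ran from 569.6 CPM in control caudal 3 to 1044 CPM in knockout caudal 7 and had other extremes. By group they stood at 611 to 789 CPM in knockout rostral, 677 to 814 CPM in control rostral, 898 to 1044 CPM in knockout caudal and 569.6 to 838 CPM in control caudal libraries, so that the knockout caudal libraries lay above those of both groups they were compared with. All 8 genes had a positive log2 fold change there, with a median of 0.37 for knockout against control in caudal libraries and 0.50 for caudal against rostral in knockouts, and edgeR's quasi-likelihood test called none of the 8. These are the comparisons in which most of the 46 genes were positive as well. Among the knockout caudal libraries, however, library 7 had the highest sum of these markers (1044 CPM) and the lowest sum of the 46 genes (3043 CPM). Library 2 had the lowest sum of these markers (898 CPM) and the highest of the 46 genes (5342 CPM). The part of intermediate progenitors in the cell cycle values was not tested. In sums, 1 of the 12 radial glia markers was called lower in knockouts, Hes5 at -1.23 (SE 0.11, adjusted p = 0.0084 by edgeR), with 5 positive and 7 negative. Of 5 oligodendrocyte precursor markers, 4 were negative and 2 were called lower in sums. These were Olig2 at -1.33 (SE 0.12, adjusted p = 0.00752 by edgeR) and Olig1 at -1.26 (SE 0.12, adjusted p = 0.0084 by edgeR).

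Markers of position differed alongside the cell cycle level across the libraries. The 3 libraries with the lowest Nr2f1, control rostral 9 (50.7 CPM), control caudal 3 (58.6 CPM) and knockout caudal 2 (71.3 CPM), had the 3 highest summed levels of the 46 genes, 4983, 4369 and 5342 CPM. The 5 libraries with the highest Nr2f1 (340.2 to 373 CPM) had sums of 2083 to 3419 CPM. In control rostral 1 and knockout rostral 5, however, Nr2f1 was low (78.9 and 97.1 CPM) and the sums were 3379.7 and 3336 CPM. Summed markers of ventral forebrain progenitors (Gsx1, Gsx2, Dlx1, Dlx2, Nkx2-1 and Lhx8), a region that was to be cut away, were highest in the 4 libraries with the highest sums of the 46 genes. Dlx1 and Dlx2, which interneurons of the cortex also express, made up most of the ventral sum. Dlx1 stood at 273, 238, 325 and 232 CPM in knockout caudal 2, control rostral 9, control caudal 3 and knockout rostral 7, and Nkx2-1 at 0.802, 0.522, 5.79 and 1.57 CPM. Nkx2-1 and Gsx1 did not follow the ventral sum. Nkx2-1 was at 1.74 CPM in knockout caudal 5, and Gsx1 was highest in control rostral 3 (1.39 CPM). The summed level of the 6 genes was 433 CPM in knockout caudal 2, 378 CPM in control rostral 9, 502 CPM in control caudal 3 and 348 CPM in knockout rostral 7, and 101 to 214 CPM in the other 8. By group it ran from 115 to 348 CPM in knockout rostral, 136 to 378 CPM in control rostral, 101 to 433 CPM in knockout caudal and 180.5 to 502 CPM in control caudal libraries, and none of the 6 genes was at 0 in a whole group. Summed markers of GABAergic interneurons (Gad1, Gad2, Slc32a1, Lhx6, Sst and Npy) were highest in the same 4, at 231, 223, 341 and 199.8 CPM in the order of libraries above, and at 83.6 to 176 CPM in the other 8. Gad1 and Gad2 were each highest in these 4 as well. Lhx6, Sst and Npy did not follow the sum, and each was highest in knockout rostral 2, the library with the lowest sum of the 46 genes. In the same order Lhx6 stood at 40.8, 40.5, 64.6 and 30.6 CPM, against 68.04 CPM in knockout rostral 2. Npy stood at 3.4, 2.98, 8.22 and 3.39 CPM, against 12.3 CPM in knockout rostral 2. The 4 libraries with the highest sums of the 46 genes are 1 of each group, and they are the same 4 in which Ccnd2 was highest. Ccnd2 is itself the largest part of that sum (1330 of 5342 CPM in knockout caudal 2), so this overlap is partly built in. In knockout rostral 7, the lowest of the 4, Ccnd2 made up 1055 of 3980 CPM. Mki67 and Top2a stood at 189 and 258 CPM there, below control caudal 1 (203 and 268 CPM), which is not among the 4. Knockout rostral 7 also stood apart in mitochondrial transcripts, at 7.25% of counts where the median was 2.82%. It also had the highest summed markers of erythroid cells (12360.4 CPM, median 5602 CPM), microglia (166 CPM, median 99.3 CPM) and pericytes (193 CPM, median 104.3 CPM), and the lowest of cortical excitatory neurons (1486 CPM, median 2002 CPM). The part of tissue composition or position in the cell cycle values was not tested.

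**Figure D5:**
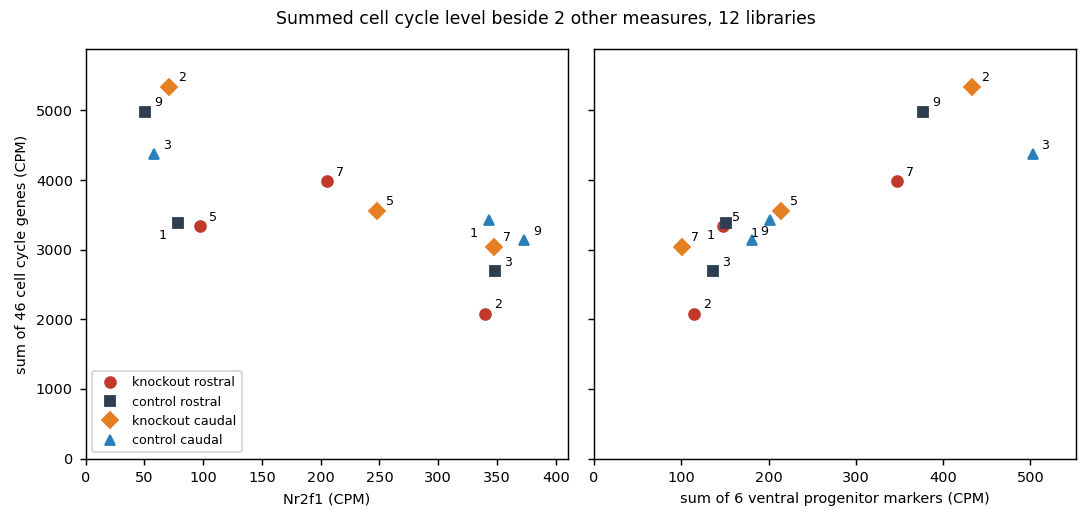
Summed CPM of the 46 cell cycle genes in each library (vertical axis) against Nr2f1 (left) and against the summed CPM of 6 ventral progenitor markers (right), with the embryo number of the title beside each point and the group as colour and shape. The 4 libraries with the highest cell cycle sums are the 4 with the highest ventral sums.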

How the data were processed

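RNA of 12 libraries was measured by messenger RNA sequencing, and the depth is given above. The authors used STAR 2.7.8a for alignment, featureCounts 2.0.3 for counting and the genome GRCm39, per the submitters' processing notes. GENCODE mouse release 28 was the annotation, counting was by fragment and reverse strand, and reads of several places or genes were shared in fractions, per the file headers. The deposited values are thus estimated counts (expected counts) per gene, with no normalization by the authors, and between 21.6% and 23.9% of detected genes per library were not at a whole number. Shared reads make members with copies or overlapping genes less certain.

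Rounded counts were tested with edgeR 4.0.16 in R 4.3.3 (robust quasi-likelihood fit, TMM scaling, filterByExpr, Benjamini-Hochberg over all genes tested, adjusted p under 0.05). Knockout was compared with control in 6 libraries of each part and in sums per titled embryo (4 residual degrees of freedom each), and caudal with rostral, and their interaction, in 1 fit of 12 libraries with 4 group means (8 residual degrees of freedom). Levels are CPM by library size, 1000000 times the count over the library's total. The SE is the log2 fold change over the root of F, and intervals use the fit's degrees of freedom. Tests were also run on simulated counts in which genes varied independently and with the same coefficient of variation. That was lower than between the libraries here and higher than between the sums, so no conclusion about these data is drawn from it. Alternatives were other scalings, DESeq2 1.42.0, no filter, libraries left out, title numbers or the replicate as a block, and all libraries in 1 fit.

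Groups came from the titles. The 46 genes, the lists, the motifs and the tests were chosen with earlier results of these data known. Values in every library are given for Mki67, Top2a, Ccnd1, Ccnd2, Cdk1, Ccnb1, Mcm2, Mcm6, Pcna, E2f1 and Foxm1 and for the 2 genes with the smallest p per direction and comparison. Genes of the other lists were named by smallest p, and not every gene this rule allows is printed. Of the ventral markers, 1 is not reported here, and the sum of that list leaves it out. Cenpe, Cdk2 and the genes named for their level, spread or non-overlap were chosen after their values were seen, as were the comparison with Nr2f1 and the fits without both libraries of knockout 2. The titles give both pieces of an embryo 1 number. Over 1000 autosomal genes, titled partners were correlated in how they deviate from their groups, and r ran from -0.706 to 0.176 and exceeded 0.1 in 1 of 6 embryos, so the pairing rests on the titles alone. What the numbers 4858 and 4692 in the titles stand for is not given in the sources used here.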

Additional observations from a re-analysis of the deposited data

How the results depend on the processing

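None of the 46 genes was called in any of the 6 comparisons under any alternative run, and the medians kept their sign under the other scalings, DESeq2 and no filter. With 1 library or titled sum left out, the median log2 fold change of the 46 genes ran from -0.432 to 0.0296 for knockout against control in rostral libraries, from -0.0539 to 0.285 in caudal libraries and from -0.0856 to 0.0379 in sums. For caudal against rostral it ran from -0.22 to 0.197 in controls and from 0.0999 to 0.535 in knockouts, and for the interaction from 0.1 to 0.569. Without the 2 control rostral libraries that held transcripts of both sexes, control rostral 9 is the 1 control rostral library left. It had the highest summed level of the 46 genes among rostral libraries (4983 CPM) and is assumed to vary like the other groups, so these values show that library and no cleaner control. The rostral genotype median was then -0.623 (3 genes with an unadjusted p under 0.05), the control caudal to rostral median -0.448 and the interaction 0.769. Without both libraries titled knockout 2, an alternative chosen after seeing the data, the knockout caudal to rostral median was -0.116 and the interaction -0.0797. The fit with the replicate number as a block changed no call, and its medians were -0.00564 in controls, 0.326 in knockouts and 0.338 for the interaction, with 0 genes called in each.

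Counts of all genes called moved more. In rostral libraries, where edgeR called none at first, DESeq2 called 4, edgeR with no filter 2 and a fit of all 12 libraries 2. In caudal libraries these counts were 77, 57 and 3 against 8. In sums they were 32 with DESeq2, 110 with no filter and 3 with 12 libraries as separate samples, against 6. DESeq2 called 93 genes for caudal against rostral in knockouts. With 1 library or sum left out the counts ran from 2 to 8 in caudal libraries, from 3 to 21 in sums, from 0 to 12 for the parts of controls and from 0 to 6 for the interaction.

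Small log2 fold changes of single genes turned sign. With scaling by library size alone Gins2 was at -0.032 in rostral libraries and Pcna at -0.0125 in sums. With the title number as a block Ccnd2 was at 0.0181 in sums. With control rostral 9 as the 1 control rostral library, E2f1 and Gins2 were at -0.18 and -0.163 between genotypes in rostral libraries, Mcm6 and E2f1 at -0.275 and -0.187 between the parts of controls, and Ccnd1 at 0.181 in the interaction. With 1 library left out, E2f1 ran from -0.101 to 0.208 and Gins2 from -0.276 to 0.226 in rostral libraries, and Ccne1 from -0.121 to 0.051 in caudal ones. In sums Mki67 ran from -0.149 to 0.0708, Ccnd2 from -0.18 to 0.141, Pcna from -0.0369 to 0.0731, Cdk1 from -0.0645 to 0.0432, Mcm2 from -0.0673 to 0.0568, Mcm6 from -0.0112 to 0.193 and Foxm1 from -0.125 to 0.0142. Between the parts Mcm6 ran from -0.0294 to 0.435 and E2f1 from -0.0453 to 0.204 in controls, and Ccnd1 from -0.298 to 0.205 in knockouts and from -0.272 to 0.231 in the interaction. The cause of these changes was not tested beyond the libraries named. The lowest count of the 46 genes in a library was 140. The common biological coefficient of variation between libraries was 0.223 in rostral and 0.18 in caudal libraries, and 0.111 between sums.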
